A study of Saccharomyces cerevisiae with 27 samples.

Results

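The data described here compare yeast cells whose histone H4 carries an aspartic acid in place of threonine 30 (H4-T30D, a substitution that mimics a phosphorylated threonine) with cells carrying wild-type H4, both growing without stress. The members are all libraries that the labels assign to those 2 groups, 3 of H4-T30D and 3 of H4 WT, which makes 6 of the 27 RNA-seq libraries of the series. Both groups derive from BY4741, the MATa laboratory strain of Saccharomyces cerevisiae, and were grown in rich YPD medium at 30°C to log phase. Both carry his3Δ200, leu2Δ0, lys2Δ0, trp1Δ63, ura3Δ0 and met15Δ0, a HIS3 gene driven by the MFA1 promoter at the CAN1 locus, and a NatMX4 cassette in place of HHT1-HHF1. In both, the remaining H3-H4 gene pair, HHT2-HHF2, was replaced by a synthetic HHTS-HHFS pair linked to URA3, so the synthetic H4, wild type or T30D, is the cells' only H4. Of the other groups, H4-T30A (threonine to alanine) without stress and H4 WT, H4-T30D and H4-T30A after 10 min at 39°C are drawn on as well. H4-S47D (a serine-to-aspartic-acid substitution elsewhere in H4) without stress enters a comparison of list medians. Its libraries held 5001 to 5685 TRP1 counts, against 22 to 28 in WT, and 8810 to 10313 URA3 counts, against 1339 to 2180 in WT. The number of clones behind each allele is not given in the sources used here.

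Histone H4 forms, with H3, H2A and H2B, the nucleosome around which DNA is wrapped, and threonine 30 lies near the border between the flexible N-terminal tail and the folded core. A phosphate on a histone residue adds negative charge, and aspartic acid is the usual genetic substitute for it. In growing yeast, ribosomal protein genes are among the most strongly transcribed, whereas stress genes, sporulation genes and many genes near chromosome ends are kept low.

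The codon of threonine 30 in the 2 native H4 genes is shown here to place the substitution, with the codon in capitals and 4 codons of context on each side (RefSeq, assembly R64). The residue is counted from the one that follows the initiator methionine. The HHF1 stretch is at chrII:255580-255606 on the minus strand and the HHF2 stretch at chrXIV:576805-576831 on the plus strand.
HHF1: atccaaggtattACTaagccagctatc
HHF2: attcaaggtatcACTaagccagctatc
Both native copies are replaced in the genotype and no gene of the count table carries the synthetic gene's name, so the counts cannot check the substitution. HHF1 received 378 to 609 counts in the WT libraries and 318 to 544 in the H4-T30D libraries, and which sequence gave them was not tested. The HHF2 coding region received 2 to 8 counts in the WT libraries and 3 to 19 in the H4-T30D libraries.

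Total counts were 14662715 to 18237189 in the WT libraries and 13608776 to 19503694 in the H4-T30D libraries. The WT libraries differed more among themselves than the H4-T30D libraries did: the chi-square per degree of freedom of their counts was 24.8 to 38.6 for WT pairs and 3.79 to 5.53 for H4-T30D pairs, and the Pearson correlations of log2 CPM across genes were 0.991 to 0.992 and 0.995 to 0.997. Pairs of a WT and an H4-T30D library gave 38.5 to 87.1 and correlations of 0.984 to 0.987. The largest value among WT pairs thus reached the smallest across the groups. WT replicate 1 stood apart in small structural RNAs, with 1824 counts of SCR1, the signal recognition particle RNA (named after its values were seen), against 318 and 186 in the other WT libraries. H4-T30D replicate 2 held 32 reads of MET17, the gene that met15Δ0 removes, whereas the other 5 libraries held 0. In the heat set, WT replicate 3 held 63 MET17 and 43 LYS2 reads.

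A change was called at a Benjamini-Hochberg adjusted p under 0.05 in edgeR's quasi-likelihood test, with all 27 libraries sharing 1 estimate of the spread. Of the 6209 genes tested, 1009 were higher in H4-T30D (16.3%) and 949 were lower (15.3%). The counts of the gene lists below stand against these shares. The sizes were unequal. By their estimates, 184 higher genes (2.96% of those tested) and 18 lower ones (0.29%) were past 2-fold. Of the 184, 94 averaged under 30 counts per library and 53 averaged 30 to 100. A test against 2-fold itself left 37 higher and 3 lower genes. Without WT replicate 1 the calls were 1016 higher and 991 lower, 168 and 15 of them past 2-fold, and without H4-T30D replicate 2 they were 796 and 764, 174 and 12 past 2-fold. The shared estimate of the spread averages over groups that differ in it. A fit to the 6 libraries alone called 771 higher and 628 lower genes and kept 74.9% and 64.1% of the calls. The median log2 fold change was 0.50 over the higher genes and -0.36 over the lower ones. The values of the 3 H4-T30D libraries lay wholly above the 3 WT values for 1377 genes (22.2%) and wholly below for 1300 (20.9%), and this was so for 959 of the higher calls and 868 of the lower calls. The split between higher and lower calls followed the scaling of the libraries: higher calls were 51.5% of all calls with TMM scaling, 39.0% with DESeq2's size factors and 60.4% with upper-quartile scaling. With library totals alone they were 89.1%, and the median log2 fold change of all genes moved from 0.01 to 0.21.

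**Figure D1:**
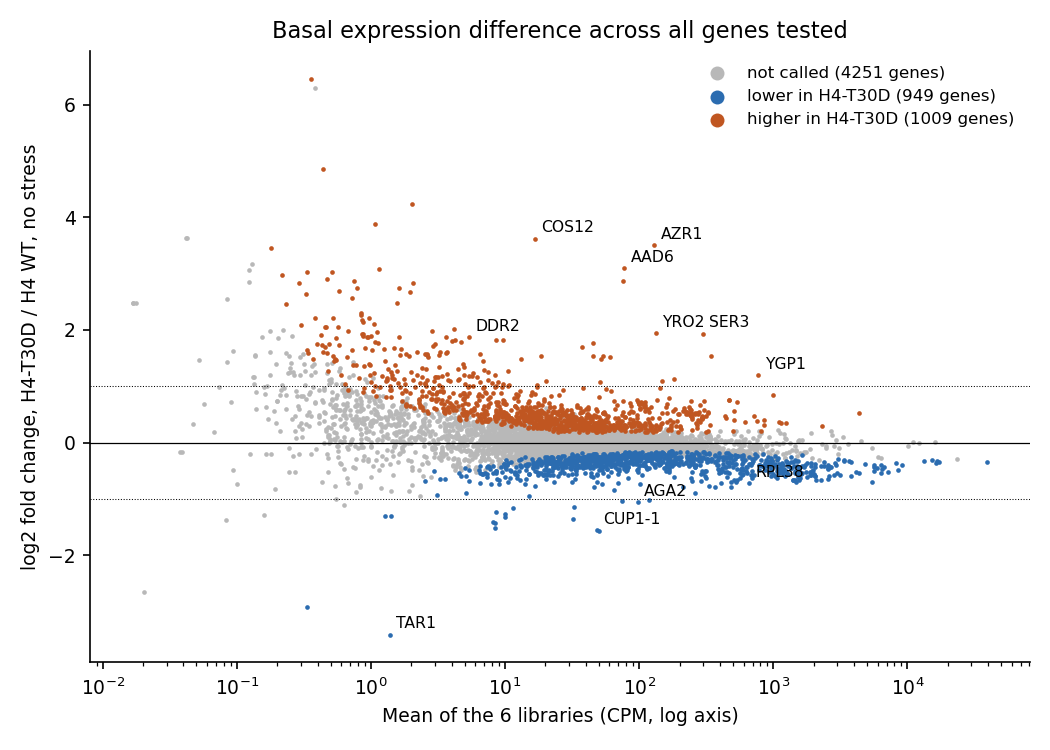
Each point is 1 of the 6209 genes tested, with its mean CPM over the 6 libraries on a log axis and its log2 fold change in H4-T30D over H4 WT without stress. Dotted lines mark 2-fold. The 184 higher genes past 2-fold far outnumber the 18 lower ones, and the lower calls gather on the right, among genes with high CPM.

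The direction of the calls went with the number of reads a gene received. Among the 798 genes averaging 3000 counts or more per library, 327 were lower (41.0%) and 77 were higher (9.65%). Among the 436 genes averaging 30 to 100 counts, 12 were lower (2.75%) and 149 were higher (34.2%). The median log2 fold change moved from 0.60 below 30 counts to -0.18 at 3000 counts or more. Genes with few counts need a larger change to be called. Ribosomal protein genes, of which 132 of 137 were lower, were not set apart in these bins.

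Among the largest rises was that of AZR1 (chrVII:942806-944647), a plasma membrane transporter of the major facilitator superfamily that confers resistance to azoles and acetic acid. Its CPM, here always with TMM-adjusted library sizes, was 20.1, 17.4 and 26.4 in the WT libraries and 249, 229 and 236 in the H4-T30D libraries. The groups were far apart relative to their spread, with a log2 fold change of 3.50 ± 0.12 (SE, n = 3 per group) and an edgeR adjusted p of 1.12e-19. AAD6 (chrVI:14305-15431), an aryl-alcohol dehydrogenase gene annotated as a pseudogene in R64, had 14.0, 16.4 and 18.3 CPM in WT and 134, 145 and 136 CPM in H4-T30D. It rose by 3.10 ± 0.10 on the log2 scale (edgeR adjusted p 5.06e-20). YFL057C, a separately counted AAD reading frame, rose by 2.86 ± 0.12. COS12 (chrVII:2790-3932), which belongs to a family of subtelomeric membrane protein genes, went from 2.87, 1.70 and 3.00 CPM in WT to 29.5, 31.2 and 31.7 CPM, a log2 fold change of 3.62 ± 0.21 (edgeR adjusted p 6.25e-14). YGL262W (chrVII:5312-5839), on the same chromosome arm, had 3 counts in each WT library and 74, 53 and 78 in H4-T30D. Measured against 3 counts in every WT library its mean CPM was 19.1-fold higher, a ratio that rests on few WT reads.

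SER3, a phosphoglycerate dehydrogenase gene of serine synthesis that is repressed in rich medium by transcription of an upstream noncoding RNA, had 129, 109 and 132 CPM in WT and 468, 478 and 463 CPM in H4-T30D. The log2 fold change was 1.93 ± 0.08 (edgeR adjusted p 2.07e-17). YRO2, a plasma membrane protein gene of the heat and acid responses, had 56.6, 55.5 and 51.5 CPM in WT and 216, 201 and 215 CPM in H4-T30D, a log2 fold change of 1.95 ± 0.09. Neither gene showed any overlap between the groups. SER3 shares its strand and part of its span with an annotated noncoding RNA, whose reads may be counted with it or dropped. Other strong rises were those of YLL056C (1.77 ± 0.10), a gene of unknown function, of AAD4 (1.54 ± 0.08), of HUG1 (1.53 ± 0.13), an inhibitor of ribonucleotide reductase, and of PDC6 (1.53 ± 0.10), a minor pyruvate decarboxylase isoform. Of the 184 genes past 2-fold, 14 had 3 or fewer counts in every WT library, and 1 of these, YFR057W, which was picked out for that reason, had 0 in all of them and 16, 10 and 12 counts in H4-T30D. Its level in H4-T30D was at least 3.56-fold higher than the level that 3 counts per WT library would give.

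**Figure D2:**
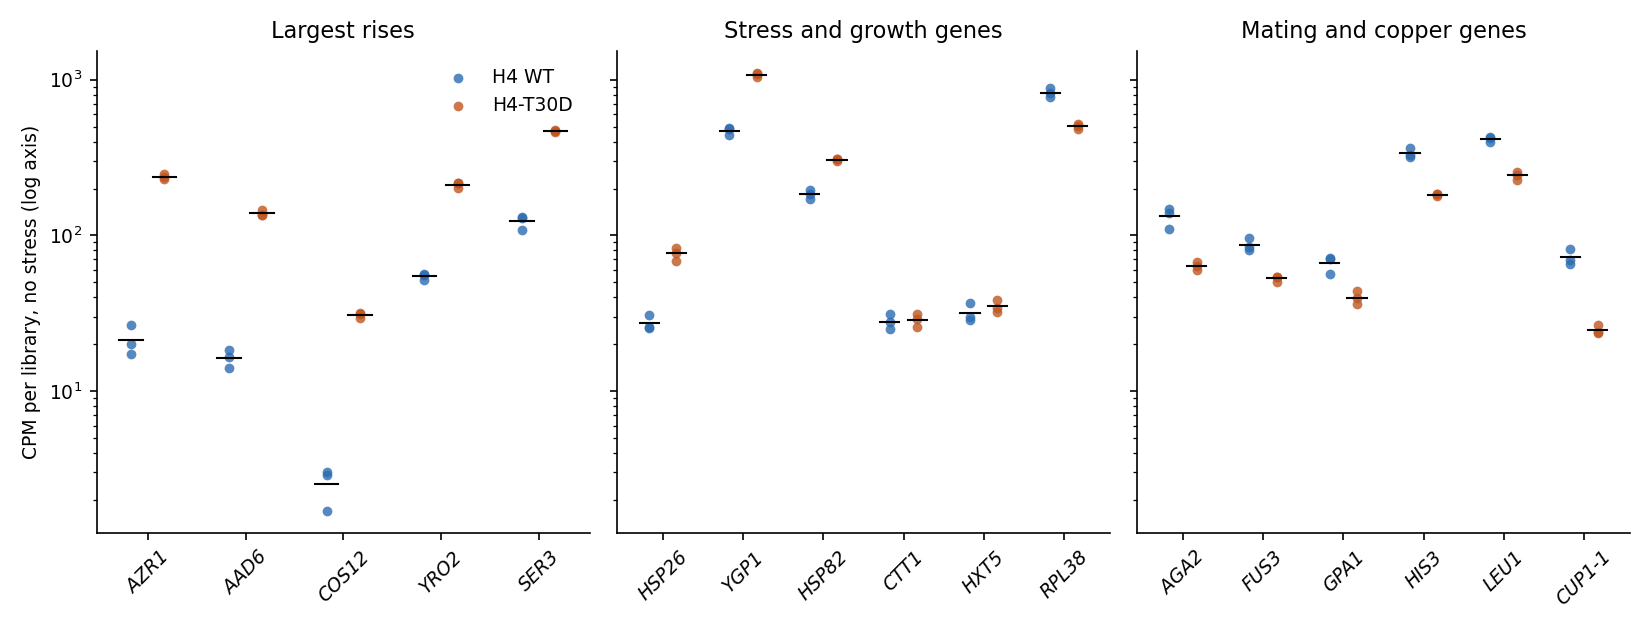
CPM in each of the 3 H4 WT and 3 H4-T30D libraries without stress, on a log axis, with a bar at the group mean. AZR1, AAD6, COS12, YRO2, SER3, HSP26, YGP1 and HSP82 are higher in every H4-T30D library, CTT1 and HXT5 overlap between the groups, and RPL38, AGA2, FUS3, GPA1, HIS3, LEU1 and CUP1-1 are lower in every H4-T30D library.

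General stress genes are those switched on by the transcription factors Msn2 and Msn4 in many kinds of stress. Of the 48 listed and tested, 25 were higher in H4-T30D and 0 were lower, with a median log2 fold change of 0.30. HSP26, a small heat shock protein gene, had 25.3, 30.8 and 25.7 CPM in WT and 83.2, 77.6 and 68.9 CPM in H4-T30D, a log2 fold change of 1.49 ± 0.10 (edgeR adjusted p 2.48e-12). YGP1, encoding a secreted glycoprotein of the stationary phase, rose from 488, 441 and 482 CPM to 1081, 1047 and 1110 CPM (1.20 ± 0.09). DDR2, a small stress protein gene, rose from 1.75, 2.97 and 2.25 CPM to 7.60, 9.58 and 8.43 CPM (1.87 ± 0.17), and HSP12, a membrane-stabilizing hydrophilin gene, rose by 0.99 ± 0.11. Other members of the list were not called. CTT1, the cytosolic catalase gene, had 27.7, 25.1 and 31.1 CPM in WT and 31.1, 25.7 and 28.9 CPM in H4-T30D, and its log2 difference of 0.04 ± 0.10 was not called. HXT5, a hexose transporter gene of slow growth, was not called either (0.14 ± 0.09). ALD3, an aldehyde dehydrogenase gene, was called at 0.29 ± 0.10 (edgeR adjusted p 0.0205), but its values overlapped between the groups and leaving out any of 4 of the 6 libraries took the adjusted p to 0.0787 or above. The list's count of higher genes was 22 to 25 when each library was left out in turn.

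STREs, the AGGGG elements bound by Msn2 and Msn4, were searched on both strands in the 300 bases before each start codon. They were present in 22.5% of the 5807 promoters of tested genes, in 62.5% of those of the 48 stress genes, in 30.5% of those of the higher genes and in 18.8% of those of the lower genes. The window of DDR2 is printed because it held 3, in capitals (chrXV:231756-232055, minus strand, RefSeq R64):
DDR2: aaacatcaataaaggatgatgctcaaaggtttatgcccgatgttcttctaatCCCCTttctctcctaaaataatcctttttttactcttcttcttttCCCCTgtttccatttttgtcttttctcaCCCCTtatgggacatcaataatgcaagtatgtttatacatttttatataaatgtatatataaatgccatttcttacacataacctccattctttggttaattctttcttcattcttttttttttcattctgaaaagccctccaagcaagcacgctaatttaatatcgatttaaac
The windows of HSP26, YGP1 and YRO2, which also rose, held none of these letters, and no inference about the factors follows from a match or its absence.

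Chaperone genes of the kind controlled by Hsf1, the heat shock transcription factor, were mixed. Of 31 tested, 9 were higher, 7 were lower and the median log2 fold change was -0.12. HSP82, the inducible Hsp90 gene, had 196, 185 and 172 CPM in WT and 309, 309 and 301 CPM in H4-T30D (0.74 ± 0.07, edgeR adjusted p 8.86e-09). HSP42, a small heat shock protein gene, rose by 0.85 ± 0.11 and SSA3, an inducible Hsp70 gene, by 0.46 ± 0.08. HCH1, an activator of Hsp90, fell by 0.44 on the log2 scale (SE 0.07). With DESeq2's size factors the list held 7 higher and 12 lower genes. It held 5 higher and 9 lower without WT replicate 3, 5 and 5 without H4-T30D replicate 3, and 8 and 4 without WT replicate 2.

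Ribosomal protein genes moved together. Of the 137 in the annotation, 132 were lower in H4-T30D, 0 were higher and 5 were not called, with a median log2 fold change of -0.50 against 0.01 for all genes tested. The median of all genes averaging 3000 counts or more per library was -0.18. They took 22.7 to 24.4% of all counts in the WT libraries and 19.3 to 19.4% in the H4-T30D libraries. RPL38, a large-subunit gene, had 773, 879 and 821 CPM in WT and 484, 517 and 503 CPM in H4-T30D (-0.72 ± 0.07, edgeR adjusted p 2.29e-09). RPS22B, RPS17B and RPS7B, all small-subunit genes, had log2 fold changes of -0.68 ± 0.08, -0.66 ± 0.07 and -0.55 ± 0.06. Large-subunit genes gave 78 lower of 81 and small-subunit genes 54 of 56. Leaving out each library in turn gave 123 to 134 lower genes, and library totals alone gave 108 lower and 1 higher. This list was taken from the gene symbols and several members are near-identical pairs whose reads the uniquely mapping filter can drop or split.

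Of 106 genes for assembling ribosomes, 16 were lower and 0 were higher, with a median of -0.13. Their share of lower genes was close to the 15.3% of all genes tested. NSA2, a factor of the large subunit, fell by 0.41 on the log2 scale (SE 0.11). This count varied with the scaling, from 30 lower genes with DESeq2's size factors to 1 with library totals, and it was 10 without WT replicate 2 and 9 without H4-T30D replicate 1. Proteasome and unfolded-protein genes gave 16 lower and 1 higher of 45, among them PRE9, a proteasome core subunit gene (-0.38 ± 0.07), and 25 lower with DESeq2's size factors against 7 with upper-quartile scaling and 8 to 13 when single libraries were left out. Library totals alone gave the opposite balance, with 1 lower and 8 higher.

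**Figure D3:**
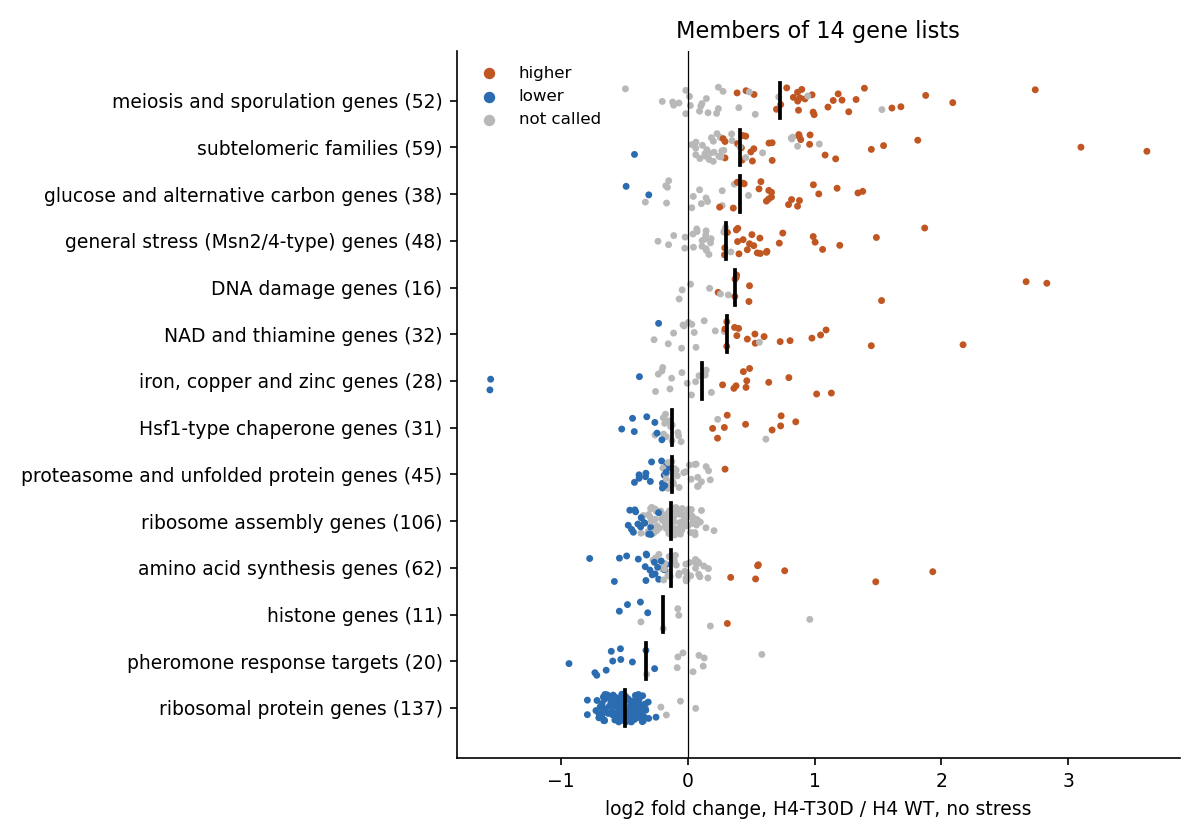
Each point is a member of 1 of 14 gene lists, placed at its log2 fold change in H4-T30D over H4 WT without stress and coloured by its call. The black bar is the list's median and the number tested is in brackets. Nearly all ribosomal protein genes sit to the left of 0, whereas the meiosis list reaches far to the right and the stress list has a right tail but no called member on the left.

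In MATa cells the a-specific genes make the a-factor pheromone and the receptor for alpha-factor, and a MAP kinase cascade transmits the pheromone signal. All 7 a-specific genes tested were lower in H4-T30D. AGA2, the binding subunit of a-agglutinin, had 110, 148 and 139 CPM in WT and 60.2, 63.6 and 67.3 CPM in H4-T30D (-1.05 ± 0.10, edgeR adjusted p 2.91e-09). ASG7, an a-specific regulator of pheromone signalling, had a log2 fold change of -0.96 ± 0.13, and MFA2, an a-factor gene, of -0.62 ± 0.10. Of 20 pheromone-response targets, 11 were lower and 0 were higher, with a median of -0.33. FUS3, the MAP kinase of mating, went from 84.1, 81.1 and 95.9 CPM to 54.2, 53.8 and 50.5 CPM (-0.72 ± 0.08), and GPA1, the G protein alpha subunit, from 70.3, 72.0 and 56.1 CPM to 36.2, 39.5 and 43.8 CPM (-0.73 ± 0.12). KAR4, a transcription factor of the response, and PRM5 had log2 fold changes of -0.60 ± 0.08 and -0.53 ± 0.06. The 15 mating-type genes tested gave 4 to 7 lower ones when single libraries were left out, and the pheromone-target count 9 to 11.

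The HIS3 marker of these strains is read from the MFA1 promoter, so it is another readout of an a-specific promoter. HIS3 had 320, 327 and 366 CPM in WT and 183, 178 and 184 CPM in H4-T30D (-0.89 ± 0.10, edgeR adjusted p 1.57e-07). MFA1 itself, named here after its values were seen, had 88.9, 148 and 145 CPM in WT and 67.6, 82.1 and 79.6 CPM in H4-T30D (-0.73 ± 0.18). HIS3 and MFA1 were lower in every H4-T30D library than in any WT library. URA3, the marker beside the synthetic histone genes, was not called (0.06 ± 0.08).

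In the opposite direction, 3 of 4 alpha-specific genes, which MATa cells do not activate, were higher. MF(ALPHA)1 and MF(ALPHA)2, the alpha-factor genes, rose by 2.1 ± 0.37 and 1.16 ± 0.20 (MF(ALPHA)1 was named after its values were seen), from levels of 0.34 to 0.42 and 1.67 to 2.12 CPM in WT. The 4 tested genes of the silent mating cassettes and MAT were not called, and their copies share sequence. Among 8 silencing genes, SIR3 alone was called, at 17.8, 18.3 and 17.3 CPM in H4-T30D against 14.0, 12.1 and 11.7 in WT (0.49 ± 0.15), and its adjusted p was 0.0558 without WT replicate 2 and 0.0525 without WT replicate 3.

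The pheromone response element, TGAAACA searched on both strands, was present in 7.09% of all 300-base promoter windows, in 60.0% of those of the 20 pheromone targets, in 8.14% of those of the lower genes and in 5.53% of those of the higher genes. The window of AGA2 held 1 and that of KAR4 held 2, whereas those of GPA1 and MFA1, which also fell, held none. No inference about a factor follows from a match or its absence. The FUS3 window is printed because it held 2, in capitals (chrII:192151-192450, plus strand, RefSeq R64):
FUS3: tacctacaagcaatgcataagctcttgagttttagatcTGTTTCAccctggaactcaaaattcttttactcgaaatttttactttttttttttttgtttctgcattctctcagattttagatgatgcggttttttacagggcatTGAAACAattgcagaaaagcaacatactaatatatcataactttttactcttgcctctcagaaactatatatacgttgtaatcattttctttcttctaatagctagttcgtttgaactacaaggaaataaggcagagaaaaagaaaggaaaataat

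Haploid cells in rich medium barely express sporulation genes. Of 52 meiosis and sporulation genes tested, 28 were higher and 0 were lower, 12 of them past 2-fold, and the median log2 fold change was 0.72. Over all genes tested 16.3% were higher and 2.96% were higher past 2-fold. Among all genes averaging 30 to 100 counts 34.2% were higher, and the median was 0.60 below 30 counts. The list was not compared with genes of like counts. The middle and late genes gave 23 of 35 and the early genes 5 of 17. IME4 (chrVII:142246-144048), an mRNA N6-adenosine methyltransferase gene of meiotic entry, had 0.51, 0.36 and 0.33 CPM in WT and 2.43, 3.29 and 2.71 CPM in H4-T30D (2.74 ± 0.31, edgeR adjusted p 1.16e-07). It overlaps an antisense noncoding RNA, and the strand setting of the counting is not given, so reads of the 2 cannot be told apart. LOH1 (1.88 ± 0.21), SPS19 (1.27 ± 0.16) and DIT1 (0.92 ± 0.12), the last an enzyme gene of the spore wall, were also higher. DIT1 reached 16.2, 18.4 and 16.3 CPM from 8.23, 9.04 and 9.58 CPM. When single libraries were left out the number of higher members was 22 to 30.

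URS1, the Ume6-binding element of early meiotic genes, was searched as its core letters GGCGGC on both strands. It was present in 5.13% of all promoter windows, in 28.8% of those of the meiosis list, in 8.71% of those of the higher genes and in 4.39% of those of the lower genes. The window of SPS19, which also rose, held none of these letters, and no inference about a factor follows from a match or its absence. The IME4 window is printed because it held 1, in capitals (chrVII:141946-142245, plus strand, RefSeq R64):
IME4: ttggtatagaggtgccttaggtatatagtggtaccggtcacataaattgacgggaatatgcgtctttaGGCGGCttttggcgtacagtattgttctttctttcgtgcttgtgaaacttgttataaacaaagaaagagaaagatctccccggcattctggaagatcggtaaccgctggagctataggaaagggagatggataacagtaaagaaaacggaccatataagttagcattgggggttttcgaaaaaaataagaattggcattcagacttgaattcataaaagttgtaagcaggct

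Genes near chromosome ends were higher more often than the rest. Of the 235 positioned genes within 20 kb of an end, 110 were higher (46.8%) and 8 were lower (3.40%). Of the 5601 genes farther in, 836 were higher (14.9%) and 936 were lower (16.7%). The medians were 0.39 and -0.01 on the log2 scale. The share of higher genes was 43.1% within 5 kb, 53.2% from 5 to 10 kb, 45.1% from 10 to 20 kb and 27.5% from 20 to 30 kb, and reached 17.4% or less beyond. Genes near ends had fewer reads, with a median of 170 counts per library against 618. Among genes of 100 to 300 counts, 33 of 49 near the ends (67.3%) and 173 of 981 elsewhere (17.6%) were higher, and among genes of 300 to 1000 counts the shares were 41.0% and 14.2%. The contrast was smaller at low counts, with 37.8% and 22.3% below 30 counts and 53.8% and 35% at 30 to 100. At 1000 to 3000 counts the shares were 30% and 11.1%, and at 3000 or more 40% and 9.28%. Of 59 genes of subtelomeric families, 26 were higher and 1 was lower. All 6 AAD genes and 8 of 11 COS genes were higher, whereas 0 of 7 Y-prime helicase genes, which lie outermost and are nearly identical, were called. Families of this kind share reads between copies, and the values of single members are uncertain.

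**Figure D4:**
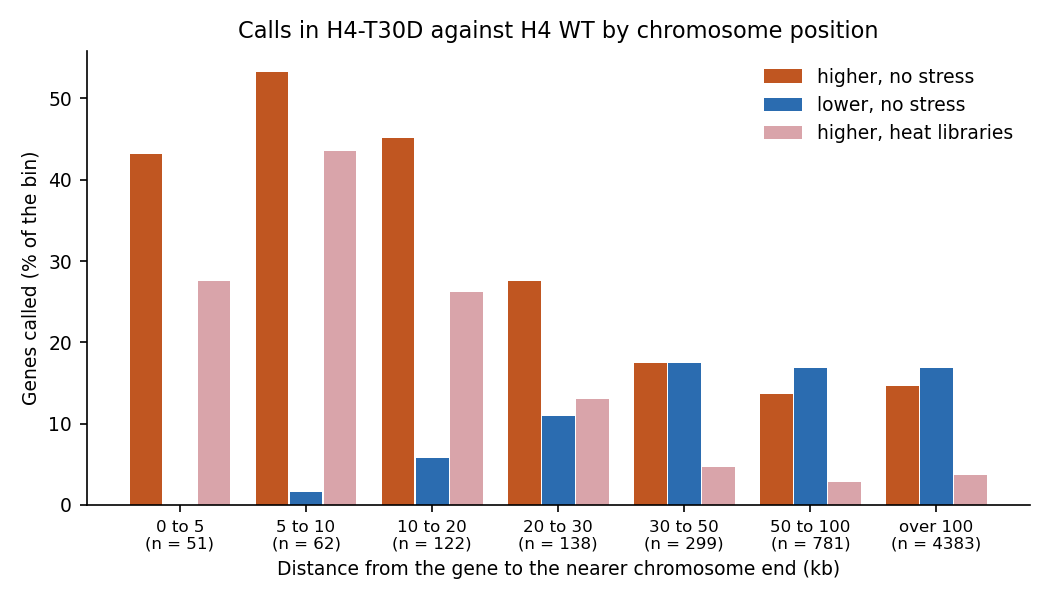
Bars give the percentage of positioned genes in each distance bin called higher or lower in H4-T30D without stress, and called higher upon heat. The share of higher genes is 43.1 to 53.2% in the 3 outermost bins without stress and falls to 14.6% beyond 100 kb, and the share higher upon heat is 26.2 to 43.5% in the same bins and 3.70% beyond 100 kb.

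Several nutrient groups held more higher than lower genes. Of 38 glucose and alternative carbon genes, 21 were higher and 2 were lower, including HXT4, a hexose transporter gene (0.79 ± 0.09), MAL32, a maltase gene with a near-identical copy (1.18 ± 0.16), and FBP1, the gluconeogenic fructose bisphosphatase gene (1.34 ± 0.19). Of 17 iron-uptake genes, 11 were higher and 0 were lower. FIT3, a cell wall mannoprotein gene that retains siderophore iron, went from 95.7, 122 and 127 CPM to 252, 253 and 249 CPM (1.13 ± 0.09), and FRE2, a ferric reductase gene, rose by 1.02 ± 0.11. Of 20 thiamine genes, 12 were higher and 0 were lower, among them THI5 (1.45 ± 0.15) and THI13 (1.05 ± 0.15), near-identical copies of a thiamine precursor enzyme. Phosphate genes gave 7 higher and 1 lower of 22, with PHO89, a sodium-phosphate transporter gene, at 1.61 ± 0.24 and PHO5, the secreted acid phosphatase gene, at 0.68 ± 0.10.

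The same was seen for drug transport and DNA damage genes. Of 28 drug and organic acid transport genes, 14 were higher and 1 was lower. FLR1, a drug efflux gene of the same superfamily as AZR1, had 95.0, 89.8 and 107 CPM in WT and 190, 185 and 198 CPM in H4-T30D (0.98 ± 0.08), and SNQ2, an ABC pump gene, rose by 0.85 ± 0.09. Of 16 DNA damage genes, 10 were higher and 0 were lower. DDI2 and DDI3, cyanamide hydratase genes that share nearly all their sequence, rose by 2.83 ± 0.28 and 2.67 ± 0.30. RNR1, the large subunit of ribonucleotide reductase, is in the cell cycle list and rose by 0.47 ± 0.08 from 588, 591 and 625 CPM to 870, 809 and 827 CPM.

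Of 5 copper genes tested, 2 were lower in H4-T30D, both past 2-fold, and 0 were higher. CUP1-1 and CUP1-2, tandem copies of the metallothionein gene on chromosome VIII, had 69.5, 82.0 and 65.7 CPM and 71.2, 87.9 and 65.3 CPM in WT, and 23.5, 23.8 and 26.5 CPM and 24.5, 28.0 and 23.9 CPM in H4-T30D. Each fell by 1.56 on the log2 scale (SE 0.14 and 0.15). The array varies in copy number between strains, a copy number was not measured here, and each copy overlaps an opposite-strand RNA. CTR2, a vacuolar copper transporter gene outside that list, fell by 1.03 on the log2 scale (SE 0.08), from 94.3, 93.0 and 114 CPM to 48.6, 45.3 and 53.0 CPM.

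Amino acid synthesis genes gave 18 lower and 7 higher of 62, but 5 lower and 20 higher with library totals alone. Branched-chain genes gave 6 lower of 10, led by LEU1, the isopropylmalate isomerase gene, at 427, 400 and 423 CPM in WT and 246, 257 and 228 CPM in H4-T30D (-0.77 ± 0.07, edgeR adjusted p 4.88e-10). OAC1, a mitochondrial carrier gene that serves leucine synthesis, had a log2 fold change of -0.83 ± 0.08. TRX1, a cytosolic thioredoxin gene, ATO3, an ammonium exporter gene, and HRI1 had log2 fold changes of -0.79 ± 0.08, -0.63 ± 0.07 and -0.58 ± 0.06. The sulfur list gave 5 higher and 4 lower of 29, shares close to the 16.3% and 15.3% of all genes, and 2 higher and 5 lower without WT replicate 2. It includes MET6, methionine synthase, at 0.74 ± 0.07 and SAM3, an S-adenosylmethionine permease gene, at -1.01 ± 0.12.

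Of 11 histone genes tested, 4 were lower and 1 was higher, against 15.3% and 16.3% of all genes tested. HTA2, an H2A gene, had 512, 559 and 583 CPM in WT and 385, 367 and 384 CPM in H4-T30D (-0.54 ± 0.07). HTZ1, the H2A.Z gene, had a log2 fold change of -0.32 ± 0.08, and HHO1, the linker histone gene, rose by 0.31 ± 0.08. Reads at HHT1 and HHT2 (-0.48 ± 0.13 and -0.37 ± 0.12) and at HHF1 (-0.37 ± 0.17, not called) come from strains in which these genes are replaced, and which sequence gave them was not tested. Without WT replicate 1, HHF1 was called at -0.61 (edgeR adjusted p 0.00403).

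Purine, uracil and one-carbon genes gave 9 lower and 0 higher of 25, respiration and TCA genes 12 lower and 5 higher of 49, cell cycle genes 8 lower and 1 higher of 33, and glycolysis and fermentation genes 6 lower and 2 higher of 21, of which 0 to 7 were lower when single libraries were left out. With library totals alone the balance was the opposite: 1 lower and 20 higher in the respiration and TCA list, 0 and 9 in the cell cycle list, 2 and 5 in the purine, uracil and one-carbon list, 1 and 7 in the glycolysis list and 0 and 13 in the ergosterol list. Without WT replicate 1 the cell cycle list gave 4 lower and 3 higher genes. Ergosterol genes gave 5 lower and 3 higher of 25, cell wall genes 6 lower and 7 higher of 33, and chromatin and silencing genes 2 lower and 1 higher of 29. Over all genes tested 15.3% were lower and 16.3% were higher, and the ergosterol and cell wall lists lay close to these shares. In the MAP kinase list 1 of 12 was called, lower. The loading genes ENO1 and ADH1 were not called, at 0.09 ± 0.12 and 0.01 ± 0.12.

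Several 5S rRNA genes and the rDNA reading frame TAR1 were lower, and these values rested in part on 1 library. The 5S rRNA gene RDN5-2 had 20.6, 9.65 and 6.58 CPM in WT and 4.80, 4.58 and 4.60 CPM in H4-T30D, with a log2 fold change of -1.42 ± 0.43 (edgeR adjusted p 0.0120). Without WT replicate 1 it was -0.82 (adjusted p 0.164), and the 4 other 5S genes named by the same rule, RDN5-1, RDN5-3, RDN5-5 and RDN5-6, also lost their calls. TAR1, a reading frame antisense to the 25S rRNA gene, had 5.24, 1.21 and 1.17 CPM in WT and 0.26, 0.14 and 0.29 CPM in H4-T30D (-3.41 ± 0.58), and -2.26 (adjusted p 0.00254) without that library. The libraries were made from poly(A) RNA, which 5S rRNA lacks, and the copies are repeated.

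The comparison with H4-T30A asks whether a change at residue 30 as such goes with the same values. H4-T30A libraries share no replicate with H4-T30D, but both are read against the same WT libraries, so their differences from WT are only set side by side. Directly compared, 804 genes were higher in H4-T30D than in H4-T30A (12.9%) and 590 were lower (9.5%). The lower count was 366 to 373 without H4-T30A replicate 2, H4-T30D replicate 1 or H4-T30D replicate 3, and a fit to the 6 libraries alone gave 1321 higher and 1240 lower. AZR1 differed from WT by 2.31 in H4-T30A and by 3.50 in H4-T30D, and the direct difference was 1.19 ± 0.10. AAD6 differed from WT by 0.07 in H4-T30A and by 3.10 in H4-T30D, and the direct difference was 3.03 ± 0.10. SER3 was at -0.80 in H4-T30A and 1.93 in H4-T30D. CUP1-1 was at -1.08 in H4-T30A and -1.56 in H4-T30D, and CUP1-2 at -1.22 and -1.56, with direct differences of -0.47 ± 0.14 (edgeR adjusted p 0.0182) and -0.34 ± 0.15 (edgeR adjusted p 0.106). Of the ribosomal protein genes 115 of 137 were lower in H4-T30D than in H4-T30A, of the stress genes 30 of 48 were higher, and of the pheromone targets 12 of 20 were lower. Unstressed H4-S47D, read against the same WT libraries, had medians of -0.54, 1.00 and -0.09 for these lists. Those of H4-T30D were -0.50, 0.30 and -0.33. The difference between H4-S47D and H4-T30D was not tested.

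Whether the basal difference was also present under heat was examined in the 6 heat libraries, none of which enters the basal comparison. In them 311 genes were higher in H4-T30D than in WT (5.01%) and 540 were lower (8.7%). Of the 1009 genes higher without stress, 208 were higher upon heat (20.6% of them and 66.9% of the heat calls). Of the 949 lower genes, 148 were lower upon heat (15.6% and 27.4%). Of the 184 higher genes past 2-fold, 81 were higher upon heat (44.0%), 4 were lower and 163 had a log2 fold change above 0. The difference between the 2 effects was tested by an interaction term, which called 870 genes (14%). Of the 184, 58 were called, all 58 with a smaller or opposite effect upon heat. The 184 were selected for a large basal estimate, which the interaction also contains. This direction therefore follows in part from the selection. Without H4-T30D replicate 1 the interaction called 579 genes, and without H4-T30D heat replicate 3 it called 564. Without WT heat replicate 3 the heat calls were 339 higher and 556 lower. They were 215 and 316 without WT heat replicate 2, 216 and 317 without H4-T30D heat replicate 1, and 225 and 359 without H4-T30D heat replicate 3. Upper-quartile scaling gave 461 higher and 241 lower, and library totals 374 and 210, the opposite balance.

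AZR1, AAD6 and COS12 kept a large difference upon heat, with log2 fold changes of 3.38 ± 0.12, 2.67 ± 0.10 and 4.24 ± 0.29. AZR1 averaged 23.5 CPM in heated WT and 243 CPM in heated H4-T30D. The stress genes gave other values. Of the 48 listed, 2 were higher and 14 were lower upon heat, with a median of -0.14, against 5.01% and 8.7% of all genes tested. HSP26 averaged 10430 CPM in heated WT and 10360 CPM in heated H4-T30D, a difference of -0.01 ± 0.09 that was not called. YGP1 was at -0.02 ± 0.08 upon heat, DDR2 at -0.40 ± 0.09 and HSP12 at -0.31 ± 0.08, each called as different from its basal effect. The ribosomal protein list gave 3 lower genes and a median of -0.06 upon heat, when these genes took 4.07 to 4.59% of WT counts. Of the 7 a-specific genes, 3 were lower and 0 were higher upon heat, with a median of -0.26. The 20 pheromone targets gave 3 lower and 1 higher, with a median of -0.04. AGA2 was at -0.03 ± 0.12 upon heat and HIS3 at -0.29 ± 0.13, neither called, while FUS3 was lower in both sets (-0.63 ± 0.10 upon heat). Within 20 kb of chromosome ends 31.1% of genes were higher upon heat, and 3.86% elsewhere.

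Genes that rose in H4-T30D without stress were often heat-responsive genes. Since WT libraries enter the basal comparison, the heat response was read from H4-T30A, whose 6 libraries share none with it, a comparison added after the data were seen. In H4-T30A 1210 genes (19.5%) rose past 2-fold upon heat and 1114 (17.9%) fell past 2-fold. Of the 1009 basally higher genes 433 were among the former (42.9%) and 40 among the latter (3.96%). Of the 949 basally lower genes 63 were among the former (6.64%) and 402 among the latter (42.4%). Of the 184 higher genes past 2-fold, 110 rose past 2-fold with heat and 74 did not, and their basal medians were 1.53 and 1.56. AZR1, AAD6 and COS12 were not past 2-fold with heat in the upward direction in H4-T30A, with log2 fold changes of 0.06 ± 0.10, 0.30 ± 0.11 and -1.20 ± 0.24, whereas HSP26 rose by 8.36 ± 0.12.

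**Figure D5:**
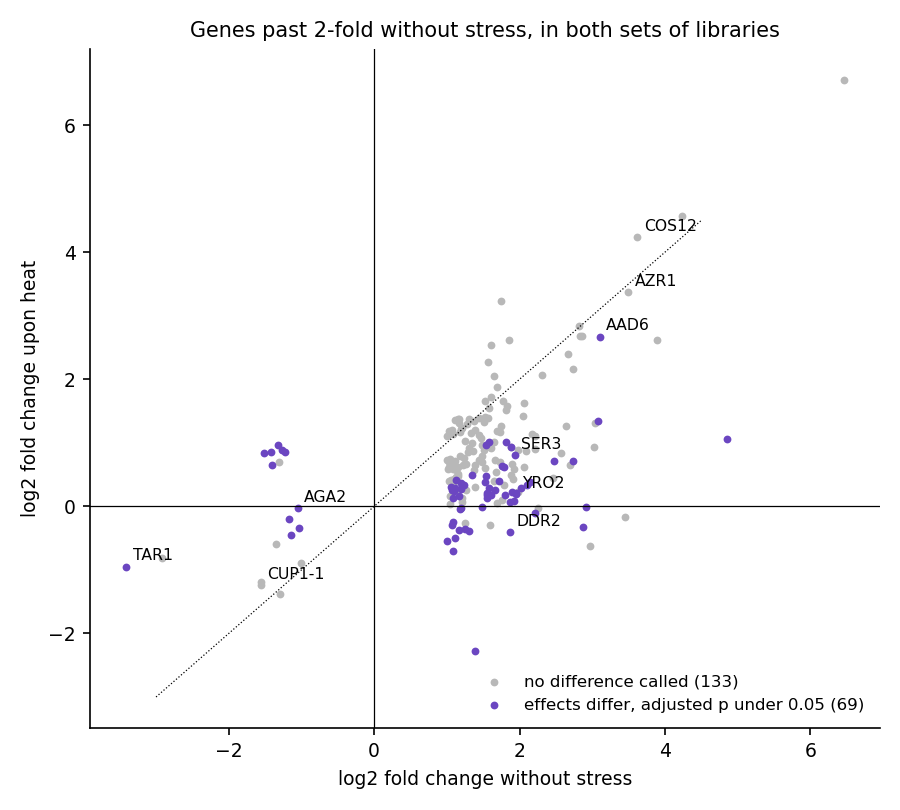
Each point is 1 of the 202 genes past 2-fold without stress, with its log2 fold change in H4-T30D over H4 WT without stress on the horizontal axis and after 10 min at 39°C on the vertical axis. Purple points are the 69 genes whose effects differed by the interaction test. AZR1 and COS12 lie near the dotted line of equal effect, whereas DDR2 and YRO2 lie near or below 0 upon heat.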

How the data were processed

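RNA-seq was done on poly(A) RNA with stranded libraries and single-end reads. The authors aligned reads with TopHat2 2.1.0 to sacCer3 and counted uniquely mapping reads per gene of the Ensembl R64-1-1 annotation with featureCounts 1.5.1, and the deposited values are these raw counts. The strand setting of the counting is not given in the sources used here. The study describes 3 biological replicates per condition.

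Groups were taken from the labels. Genes were filtered with filterByExpr (minimum count 10), scaled with TMM, and tested with edgeR 4.0.16 (R 4.3.3, limma 3.58.1) by the quasi-likelihood test, with 1 mean for each of the 9 groups and Benjamini-Hochberg adjustment over the 6209 of 6746 genes that passed. SE is the fold change divided by the root of its F statistic. Depth was 13608776 to 19503694 counts in the 6 basal libraries. Scripts were tested on simulated data. Symbols and positions came from the RefSeq R64 annotation, which matched 6056 genes. The named genes were, in each direction, the 10 with the largest called change (mean of 10 counts or more, no overlap) and the 10 with the smallest adjusted p, plus the histone and marker genes, genes the study followed, and up to 4 members of each of 26 lists, and others are said to be chosen after their values were seen. The members and lists were chosen with earlier results of these data known. Alternatives were other scalings, filters, a replicate block, a robust fit, a test against 2-fold, DESeq2 1.42.0, fits to the 6 libraries compared, and leaving out each library. Per-gene p-values rest on 3 cultures per group.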

Additional observations from a re-analysis of the deposited data

Results flagged for a closer look

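Of the 85 genes described, 46 had an H4-T30D effect that differed between the heat and the no-stress libraries by the interaction test (edgeR's quasi-likelihood test, Benjamini-Hochberg adjusted over all genes tested). Each value below is the log2 effect upon heat minus the log2 effect without stress. The effect moved toward or past 0 upon heat for 44 of the 46 genes, and away from 0 for RNR1 (0.73) and HXT4 (0.43). For HXT5, ALD3 and URA3 the effect passed 0 and became larger in size. The difference contains the basal value itself, and many of the 85 genes were named for their basal values. These counts therefore follow in part from that choice. Over all genes tested the interaction called 870 of 6209 (14%).

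Among stress and chaperone genes the difference was -2.27 for DDR2, -1.75 for YRO2, -1.51 for HXT5, -1.50 for HSP26, -1.30 for HSP12, -1.22 for YGP1, -1.01 for HSP42, -0.86 for ALD3, -0.75 for HSP82 and -0.57 for SSA3, and 0.38 for HCH1. HXT5 was not called without stress and was lower upon heat (-1.37), and DDR2, HSP12 and ALD3 were higher without stress and lower upon heat.

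Among metabolic, transport and other genes that were higher without stress the difference was -1.15 for PDC6, -1.13 for SER3, -1.07 for AAD4, -0.95 for LOH1, -0.92 for MET6, -0.84 for FBP1, -0.72 for FIT3, -0.66 for SIR3, -0.55 for HHO1, -0.49 for SNQ2 and -0.43 for AAD6. It was -1.76 for MF(ALPHA)1 and -0.36 for URA3, which was not called without stress.

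Among genes that were lower without stress the difference was 1.02 for AGA2, 0.72 for ASG7, 0.60 for HIS3, 0.47 for KAR4 and 0.26 for PRM5 in the mating group. It was 0.56 for RPS22B, 0.54 for RPL38, 0.54 for RPS17B and 0.39 for RPS7B among ribosomal protein genes. It was 0.69 for CTR2, 0.62 for OAC1, 0.39 for ATO3, 0.37 for TRX1 and 0.34 for PRE9. For the rDNA genes it was 2.46 for TAR1, 2.15 for RDN5-1, 2.27 for RDN5-2, 2.35 for RDN5-3, 2.06 for RDN5-5 and 2.30 for RDN5-6, whose basal values rest in part on WT replicate 1.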

How the results depend on the processing

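With library totals only, 2088 genes were higher and 256 lower without stress, 291 and 8 past 2-fold, 210 were lower upon heat and 273 were lower than in H4-T30A. The list medians then changed sign, to 0.145 for respiration and TCA, 0.138 for cell cycle, 0.164 for ergosterol and 0.143 for MAP kinase genes, and to 0.015 for histone, 0.071 for Hsf1-type chaperone, 0.063 for ribosome assembly, 0.072 for amino acid synthesis, 0.024 for purine, uracil and one-carbon, 0.101 for glycolysis and fermentation and 0.070 for proteasome and unfolded protein genes, all below the shifted median of all genes (0.209). Upper-quartile scaling left 241 genes lower upon heat. DESeq2 on all 27 libraries called 844 higher and 1338 lower. A test against 2-fold left 37 higher and 3 lower genes. Fits to the 6 libraries compared gave 628 lower without stress, 236 lower upon heat, and 1321 higher and 1240 lower than H4-T30A. DESeq2 on the same 6 gave 281 lower upon heat and 1055 lower than H4-T30A.

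Leaving out single libraries gave 746 to 1016 higher and 718 to 991 lower genes without stress, 162 to 194 and 12 to 19 past 2-fold, 215 to 339 higher and 316 to 556 lower upon heat, 589 to 666 higher and 366 to 482 lower than H4-T30A, and 564 to 1107 genes whose effects differed. No basal call changed direction in the fits named here that were compared call by call (all but the test against 2-fold). Of 2278 comparisons over 143 named genes, 77 lost the call and 25 gained one. The cause of these changes was not tested.

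Replicate numbers did not pair the samples: deviations of same-numbered WT and H4-T30D libraries correlated at -0.06, 0.001 and -0.11. With the replicate number as a block, 993 genes were higher and 931 lower (182 and 18 past 2-fold), 307 and 535 upon heat, 782 and 579 against H4-T30A, and 831 effects differed.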
